A study of Zea mays with 2 samples.

Results

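Shared regions built of 3 or more methylation peaks are stretches of the maize genome where a peak of one seed tissue overlapped more than 1 peak of the other, so that the peak caller drew the outlines differently in embryo and endosperm. They were chosen by peak position: embryo and endosperm peaks on chromosomes 1 to 10 that shared at least 1 bp were joined, and joined regions with peaks of both tissues and at least 3 peaks in all were kept. This gave 4225 regions among 81867 shared regions (5.16%, 95% Wilson interval 5.01 to 5.31) and among 379725 methylation regions of any kind. They fall into 3 classes. In 2727 regions 1 embryo peak covered several endosperm peaks, in 1209 regions 1 endosperm peak covered several embryo peaks, and in 289 regions several peaks of each tissue were chained together.

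The data are 1 MeDIP-seq library of embryo and 1 of endosperm, from ears of the inbred line B73 taken 14 days after self-pollination, with no treatment. An antibody against 5-methylcytidine captured sheared DNA, which was then sequenced, and peaks were called in each library on its own. Each peak carries a diffScore, which is −10 times the log10 of the p-value that the peak caller gave it, and none is below 50. There is 1 library per tissue, so no test between tissues was made and every interval covers counting error alone.

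In plants, cytosines are methylated in CG, CHG and CHH contexts, and most of the methylated DNA of maize lies in transposable elements, which occupy much of the genome between genes. The endosperm is the nourishing tissue of the kernel and arises from the fertilised central cell. There the DNA glycosylase DEMETER cuts methylated cytosines out of maternal DNA before fertilisation, as worked out in Arabidopsis. A MeDIP peak gives the extent of an enriched stretch and not the state of single cytosines, so a broken peak shows where enrichment fell below the limit of the peak caller, or where neighbouring peaks were kept apart.

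The lists used here hold 351748 embryo and 114577 endosperm peaks on chromosomes 1 to 10, covering 111817639 and 28942202 bp. Read numbers of single peaks were not used here. The regions of 3 or more peaks took up 5746 embryo peaks (1.63%, 95% Wilson interval 1.59 to 1.68) and 7437 endosperm peaks (6.49%, 6.35 to 6.63). By length these were 3.04% of the embryo and 9.60% of the endosperm peak sequence. The most frequent diffScore at or above 1000 was 3100 in each list, held by 16 embryo and 13 endosperm peaks over all sequences, so scores at that value rank peaks no further.

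Most of the regions were built of the smallest number of peaks that the rule allows. A total of 3780 regions (89.5%) held 3 peaks, 390 held 4, 48 held 5, 6 held 6 and 1 held 7. The commonest form by far was 1 embryo peak over 2 endosperm peaks, with 2584 regions, or 61.2% of all. This order of the classes depends on the lists: with a diffScore of at least 100 in both, 275 regions had 1 embryo peak and 418 had 1 endosperm peak, and with peaks within 200 bp taken as overlapping the numbers were 3287 and 7041. Its mirror image, 1 endosperm peak over 2 embryo peaks, was found 1196 times. Longer series were found mostly under embryo peaks: 128 embryo peaks covered 3 endosperm peaks, 14 covered 4 and 1 covered 6. Under endosperm peaks, 12 regions held 3 embryo peaks and 1 held 4. Among the chains of several peaks on each side, 250 held 2 of each and 3 held 3 of each.

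The region with the most peaks lay on chromosome 5 from 105803975 to 105810725. Its single embryo peak was 6751 bp long with a diffScore of 278. The 6 endosperm peaks on it had diffScores between 52.3 and 121, and together they covered 3973 bp of it. A stretch of 1616 bp between the fourth and the fifth of them held no endosperm peak, whereas the last pair was separated by 1 bp. On the endosperm side the most divided region was 1683 bp long, on chromosome 4 from 168961705 to 168963387. Its endosperm peak had a diffScore of 1065, and its 4 embryo peaks of 690, 271, 233 and 289 bp had diffScores of 325, 157, 65.3 and 129. The embryo peaks were 45, 17 and 3 bp apart. On chromosome 1, from 134946068 to 134949943, a strong embryo peak (diffScore 1124) of 3876 bp covered 4 endosperm peaks with diffScores between 88.5 and 356. The longest region with 1 endosperm peak, 4118 bp on chromosome 1 from 23796572 to 23800689, held embryo peaks of 148, 2121 and 1682 bp with diffScores of 58.2, 337 and 559, which were 29 and 21 bp apart.

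**Figure D1:**
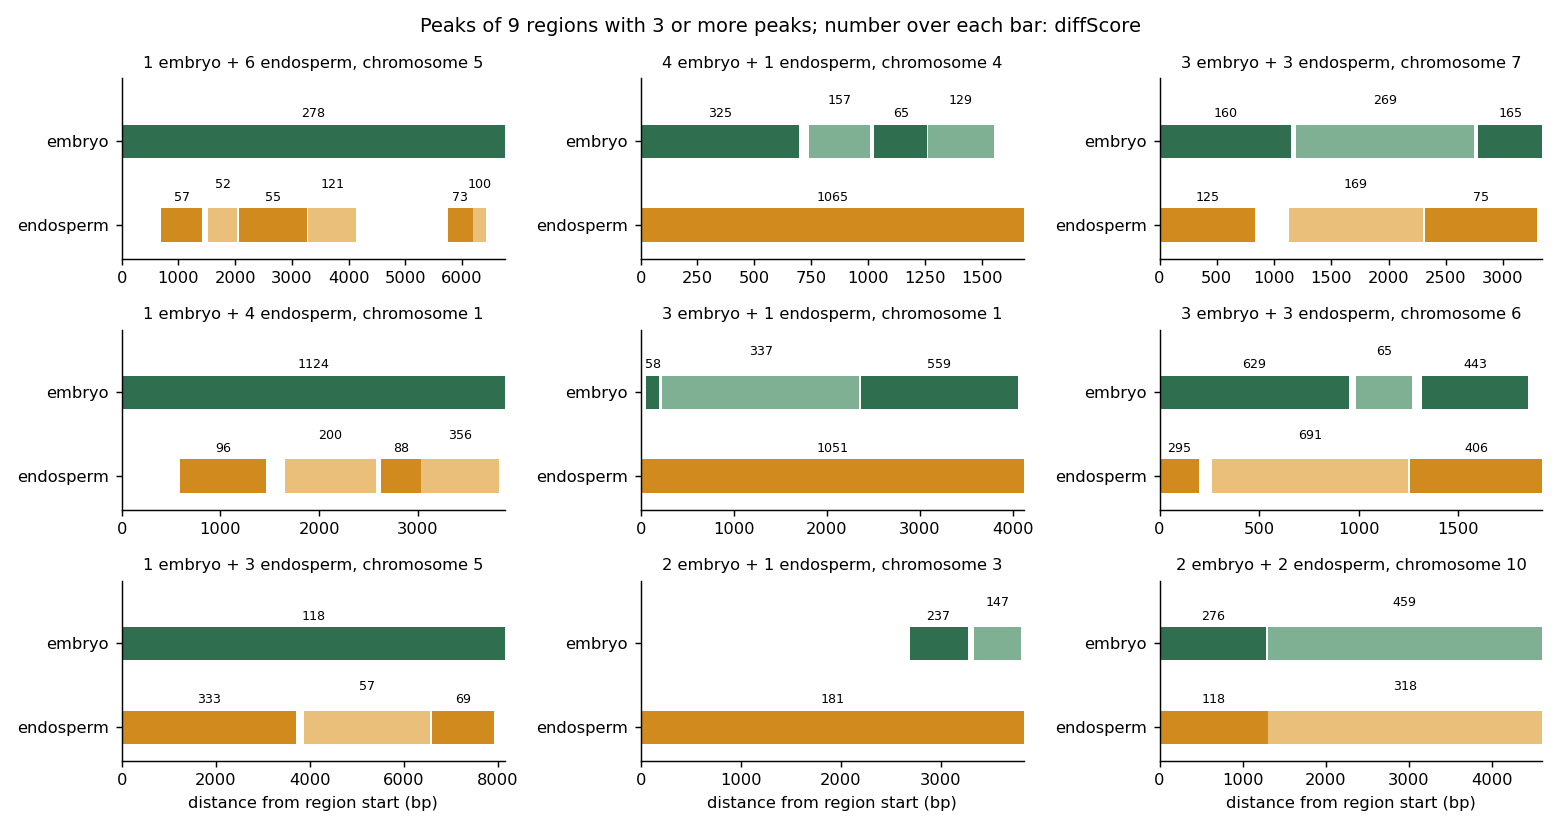
Embryo peaks (green, upper row) and endosperm peaks (orange, lower row) of 9 regions, drawn to scale against the distance from the region's start in bp, with neighbouring peaks in alternating shades and the diffScore over each peak. The left column shows 1 embryo peak over 6, 4 and 3 endosperm peaks, the middle column 1 endosperm peak over 4, 3 and 2 embryo peaks, and the right column several peaks of each tissue.

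Chains of several peaks on each side included a region of 3344 bp on chromosome 7 from 124933641 to 124936984. Its embryo peaks of 1146, 1552 and 562 bp were 45 and 39 bp apart, and its endosperm peaks of 830, 1174 and 978 bp were 293 and 13 bp apart. Each embryo gap there was covered by an endosperm peak and each endosperm gap by an embryo peak, as the joining rule requires of any gap inside a region. On chromosome 6, from 117138241 to 117140164, the middle one of 3 embryo peaks was the weakest, with a diffScore of 64.9 between 629 and 443, whereas the middle one of 3 endosperm peaks was the strongest, with 691 between 295 and 406. On chromosome 10, from 39903 to 44511, the breaks of the lists nearly coincided. The embryo peaks of 1285 and 3298 bp were split by 18 bp and the endosperm peaks of 1302 and 3302 bp by 2 bp. In the 250 regions of 2 peaks on each side, the embryo gap and the endosperm gap were a median of 44.5 bp apart (quartiles 12 and 152). The embryo gap was the left one in 131 of them, so neither order prevailed.

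Region length was the most visible difference from the 77642 regions of 1 embryo and 1 endosperm peak. Regions of 3 or more peaks had a median length of 708 bp (95% interval 694 to 720), against 355 bp (354 to 357) for regions of 1 of each. The median was 673 bp with 1 embryo peak, 766 bp with 1 endosperm peak and 930 bp with several of each. A region that must hold 3 peaks has to be longer than one that may hold 2, so these lengths follow in part from the rule. The shortest region had 253 bp and the longest 8148 bp.

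Embryo peaks covered more of the region than endosperm peaks in each class, but the classes differed in which peaks lay inside which. With 1 embryo peak over several endosperm peaks, embryo peaks covered a median of 100% of the region and endosperm peaks 74.7% (quartiles 62.8 and 86.3). In 1393 of these 2727 regions (51.1%, 95% Wilson interval 49.2 to 53.0) all endosperm peaks lay inside the embryo peak, and in 248 (9.09%, 8.07 to 10.2) they ran past it at both ends. With 1 endosperm peak over several embryo peaks embryo peaks covered a median of 92.5% (84.0 and 97.6) and endosperm peaks 75.4% (49.0 and 99.3). The embryo peaks all lay inside the endosperm peak in 251 of 1209 regions (20.8%, 18.6 to 23.1) and ran past it at both ends in 620 (51.3%, 48.5 to 54.1). The commonest arrangement of that class was thus an endosperm peak laid across the break between embryo peaks that reached further out on each side. Over all 1209 regions the endosperm peak had a median of 460 bp.

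The highest diffScore of a region had a higher median in each class and list than in regions of 1 of each. For a divided tissue this sets the highest of several peaks against a single peak. The lowest diffScore of a divided tissue had a lower median than regions of 1 of each. For endosperm it was 60.6 with 1 embryo peak and 68.2 with several of each, against 71.4. For embryo it was 80.5 with 1 endosperm peak and 101 with several of each, against 136. These scores helped to decide which peaks were listed at all, so they are given as a description. The highest embryo diffScore of a region had a median of 319 (95% interval 311 to 327) with 1 embryo peak, 171 (162 to 182) with 1 endosperm peak and 251 (219 to 275) with several of each, against 136 (135 to 137) in regions of 1 of each. For endosperm the medians were 92.6 (90.4 to 94.6), 132 (122 to 140) and 130 (117 to 148), against 71.4 (71.2 to 71.6). In the first 2 classes the undivided tissue therefore had the higher median of its own list: embryo scores were higher under undivided embryo peaks than over divided ones, and endosperm scores likewise. Across the lists, scores were not compared.

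The pieces of a divided peak differed in diffScore, to an extent that was not compared between the lists. With 2 or more endosperm peaks under 1 embryo peak, the strongest had a median diffScore of 92.6 and the weakest 60.6, and the median ratio within a region was 1.38 (quartiles 1.15 and 1.85). With 2 or more embryo peaks under 1 endosperm peak the medians were 171 and 80.5, and the ratio was 1.97 (1.31 and 3.71). A ratio of 4 or more was found in 85 of the 2727 regions (3.12%, 95% Wilson interval 2.53 to 3.84) and in 278 of the 1209 (23.0%, 20.7 to 25.4). Of these 278, 190 belonged to a group of very similar regions, each with a stronger embryo peak of diffScore 1000 or more. Without the group it was 88 of 1019 (8.64%, 7.06 to 10.5), with a median ratio of 1.69. A ratio of 4 or more is part of the rule that picked the group, so this fall follows from the rule. In 2040 of 2727 and 942 of 1209 regions the strongest peak was also at least as long as the weakest. Where 1 embryo peak covered 2 endosperm peaks, the left one was the stronger in 1257 of 2584 regions (48.6%, 46.7 to 50.6). Where 1 endosperm peak covered 2 embryo peaks, it was the left one in 648 of 1196 (54.2%, 51.3 to 57.0). Of these 648, 123 belonged to the group of 190 similar regions, in which the share was 64.7%.

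The gaps between the pieces were short. Between endosperm peaks on 1 embryo peak the gap had a median of 43 bp (95% interval 40 to 46, 2887 gaps), with quartiles of 15 and 101 bp. Between embryo peaks on 1 endosperm peak it had a median of 30 bp (27 to 34, 1223 gaps), with quartiles of 10 and 70 bp. In regions with several of each the medians were 33 bp for 325 endosperm gaps and 26 bp for 298 embryo gaps. Over all classes, 612 of 3212 endosperm gaps (19.1%) and 386 of 1521 embryo gaps (25.4%) measured 10 bp or less, and 81 and 43 of them measured 1 bp. Gaps over 500 bp were found 42 times in endosperm and 6 times in embryo. The longest endosperm gap was 2124 bp and the longest embryo gap 965 bp. Summed over a region, endosperm gaps took up a median of 7.26% of the embryo peak that covered them, and embryo gaps 5.03% of the endosperm peak. In regions of 1 embryo and 2 endosperm peaks, the gap fell in the central one of 3 equal parts of the embryo peak 1950 times out of 2584 (75.5%, 95% Wilson interval 73.8 to 77.1). In the reverse form it fell in the central part of the endosperm peak 605 times out of 1196 (50.6%, 47.8 to 53.4).

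To see how often a gap was bridged, all gaps of up to 500 bp between neighbouring peaks of 1 list were followed in the other list, whether or not they lay in a region of 3 or more peaks. Of 1350 endosperm gaps of up to 20 bp, 1038 (76.9%, 95% Wilson interval 74.6 to 79.1) were bridged by 1 embryo peak. The share fell to 59.9% at 21 to 50 bp, 45.6% at 51 to 100 bp, 20.8% at 101 to 200 bp and 6.58% at 201 to 500 bp. Of 5806 embryo gaps of up to 20 bp, 609 (10.5%, 9.73 to 11.3) were bridged by 1 endosperm peak, and 3400 (58.6%) lay between embryo peaks that no endosperm peak touched. The share of bridged embryo gaps fell from there to 0.125% at 201 to 500 bp. Embryo peaks cover more of the genome than endosperm peaks, as given above, and the part of this in these shares was not tested. Among short gaps whose peaks on either side were both met by the other list, the shares were closer. The other list bridged 1038 of 1176 such endosperm gaps of up to 20 bp (88.3%, 86.3 to 90.0) and 609 of 932 such embryo gaps (65.3%, 62.2 to 68.3). At 101 to 200 bp these shares were 31.7% of 1427 and 14.9% of 1304.

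**Figure D2:**
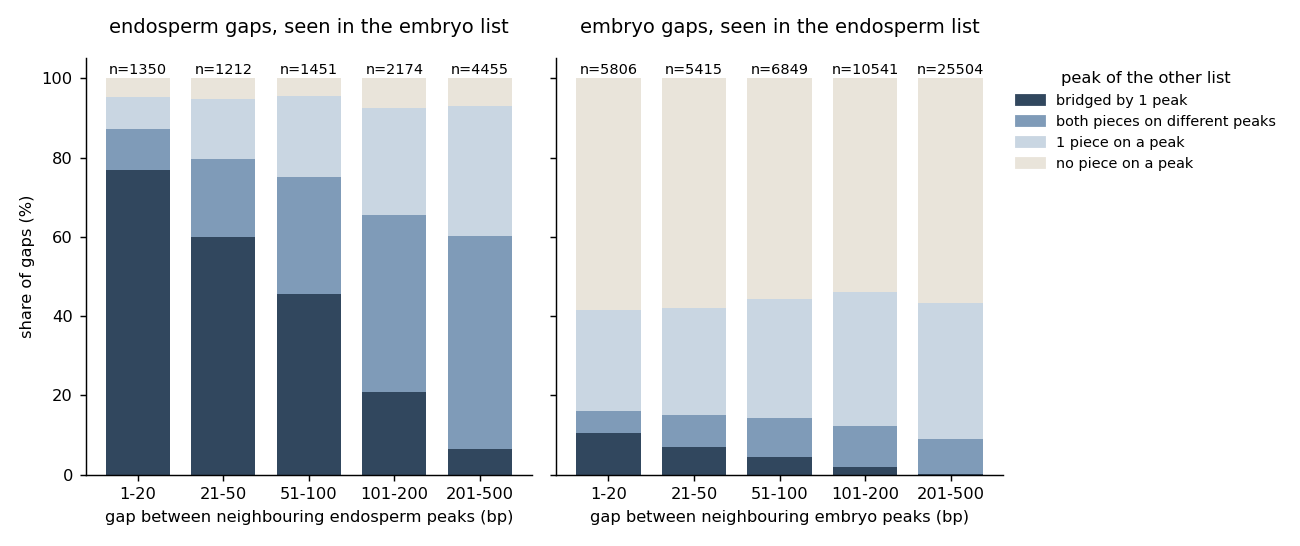
Share in percent of the gaps between neighbouring peaks of 1 list, by gap length in bp, that were bridged by 1 peak of the other list, had their flanking peaks on different peaks of the other list, or had 1 or neither of them on such a peak; n is the number of gaps. Bridged gaps, which make the regions of 3 or more peaks, were 76.9% of the shortest endosperm gaps and 10.5% of the shortest embryo gaps, and both shares fell with gap length.

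Long peaks were the ones most often met by several peaks of the other tissue. Among shared regions with a single embryo peak, the share with several endosperm peaks was 0.0909% for embryo peaks of up to 200 bp, 4.18% at 401 to 600 bp, 15.8% at 801 to 1000 bp, 34.1% at 1001 to 1500 bp and 47.8% (95% Wilson interval 41.3 to 54.3) at 1501 to 2000 bp. Above 2000 bp it was 37.6% (30.7 to 45.0). Among shared regions with a single endosperm peak, the share with several embryo peaks was 0.407% for endosperm peaks of up to 200 bp, 2.97% at 401 to 600 bp, 11.0% at 801 to 1000 bp, 42.7% at 1001 to 1500 bp and 57.7% (50.8 to 64.3) at 1501 to 2000 bp. It was 46.6% (39.1 to 54.3) above 2000 bp. Without the group of 190 similar regions the endosperm shares were 35.6% (31.0 to 40.4) at 1001 to 1500 bp, 25.4% (18.3 to 34.1) at 1501 to 2000 bp and 20.9% (14.4 to 29.4) above 2000 bp. In each tissue the intervals of the last 2 length classes overlapped, in endosperm also without the group.

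**Figure D3:**
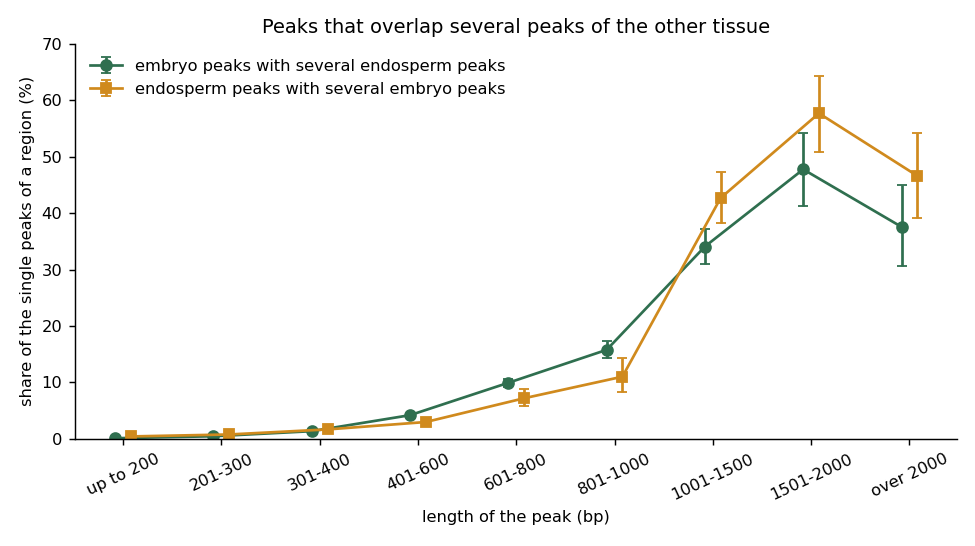
Share in percent of single embryo peaks that overlapped several endosperm peaks (green circles), and of single endosperm peaks that overlapped several embryo peaks (orange squares), by length of the peak in bp, with 95% Wilson intervals. Both shares were below 5% up to 600 bp and were highest at 1501 to 2000 bp, 47.8% and 57.7%; without the group of 190 similar regions the endosperm share there was 25.4%.

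In each length class up to 1500 bp, embryo peaks that covered several endosperm peaks had a higher median embryo diffScore than those that covered 1. Within a class they were also somewhat longer, with medians of 502 against 479 bp at 401 to 600 bp. In the class up to 200 bp, with 7 and 7697 regions, the 95% intervals of the score overlapped. The median scores were 265 against 209 at 401 to 600 bp (794 and 18203 regions) and 431 against 326 at 801 to 1000 bp (387 and 2068). They were 486 against 313 at 1001 to 1500 bp (302 and 584). For these scores the 95% intervals, which cover counting error only, did not overlap. The highest endosperm diffScores had medians of 82.3 against 77.3, 112 against 92.0 and 128 against 104 in the same length classes. Here the highest of several peaks is set against a single peak, which by itself raises the first value. At greater length the embryo intervals overlapped, with 568 (519 to 616) against 447 (295 to 572) at 1501 to 2000 bp and 540.5 (352 to 681) against 275 (208 to 399) above 2000 bp. The endosperm medians had the reverse order there, with 134 against 181 and 162 against 227. Endosperm peaks covered a median of 67.0% of an embryo peak met by several and 42.8% of one met by 1 at 801 to 1000 bp. Several peaks are here set against 1, which by itself tends to raise the first value. The order was reversed at 1501 to 2000 bp, with 64.9% against 74.2%, and above 2000 bp, with 64.6% against 83.4%. For endosperm peaks, their own diffScore had a median of 137 (126 to 150) over several embryo peaks and 129 (126 to 131) over 1 at 401 to 600 bp. Its order was the same in the other length classes except up to 200 bp (58.6 against 59.6), with overlapping intervals. The diffScore of the other list, that of embryo, went the other way at short length. At 401 to 600 bp the highest embryo diffScore had a median of 139 (128 to 165) with several embryo peaks and 234 (229 to 239) with 1. At 1501 to 2000 bp the order was reversed, with 1387 (1300.3 to 1471) in 116 regions against 662 (422 to 1072) in 85. Of these 116 regions, 87 belonged to the group of 190 similar regions, and the other 29 had a median of 654 (286 to 867).

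The 190 similar regions were 1 long endosperm peak over a strong and a weak embryo peak side by side. A rule chosen after their values were seen, a stronger embryo peak with a diffScore of at least 1000 and at least 4 times the weaker one, picked 190 of the 1196 regions of 1 endosperm and 2 embryo peaks (15.9%). With a minimum of 500, 700 or 1500 instead, it picked 216, 206 or 87. The stronger embryo peak measured 800 to 1000 bp in 180 of the 190, with a median of 908.5 bp (quartiles 883 and 929) and a median diffScore of 1485 (1358 and 1600). In the other 1006 regions of this form the stronger embryo peak had a median of 349 bp (250 and 513). The weaker embryo peak of the 190 regions had a median diffScore of 137 (110 and 175). Its lengths fell into separate groups: 86 measured 300 to 500 bp and 95 measured 600 to 820 bp, with 4 from 501 to 600 bp. The gap between the strong and the weak peak had a median of 65 bp and was never above 173 bp.

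The endosperm peak over a strong and a weak embryo peak had a median length of 1852.5 bp (quartiles 1478 and 2042) and a median diffScore of 580.2 (429 and 746). It reached past the outer end of the strong embryo peak by a median of 134 bp (25 and 524) and past that of the weak one by 24 bp (−24 and 197, where a negative value means that it ended before). The stronger embryo peak was the left one in 123 of the 190 regions (64.7%, 95% Wilson interval 57.7 to 71.2) and the right one in 67. The regions were found on all 10 chromosomes, between 6 on chromosome 8 and 57 on chromosome 6. With a weaker peak of 300 to 500 bp, the medians of the strong and weak diffScores were 1470.5 and 141, and with one of 600 to 820 bp they were 1505 and 131. The region was longer with the longer weak peak, 1978 against 1722.5 bp, and the strong peak had almost the same length, 909 against 907.5 bp.

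**Figure D4:**
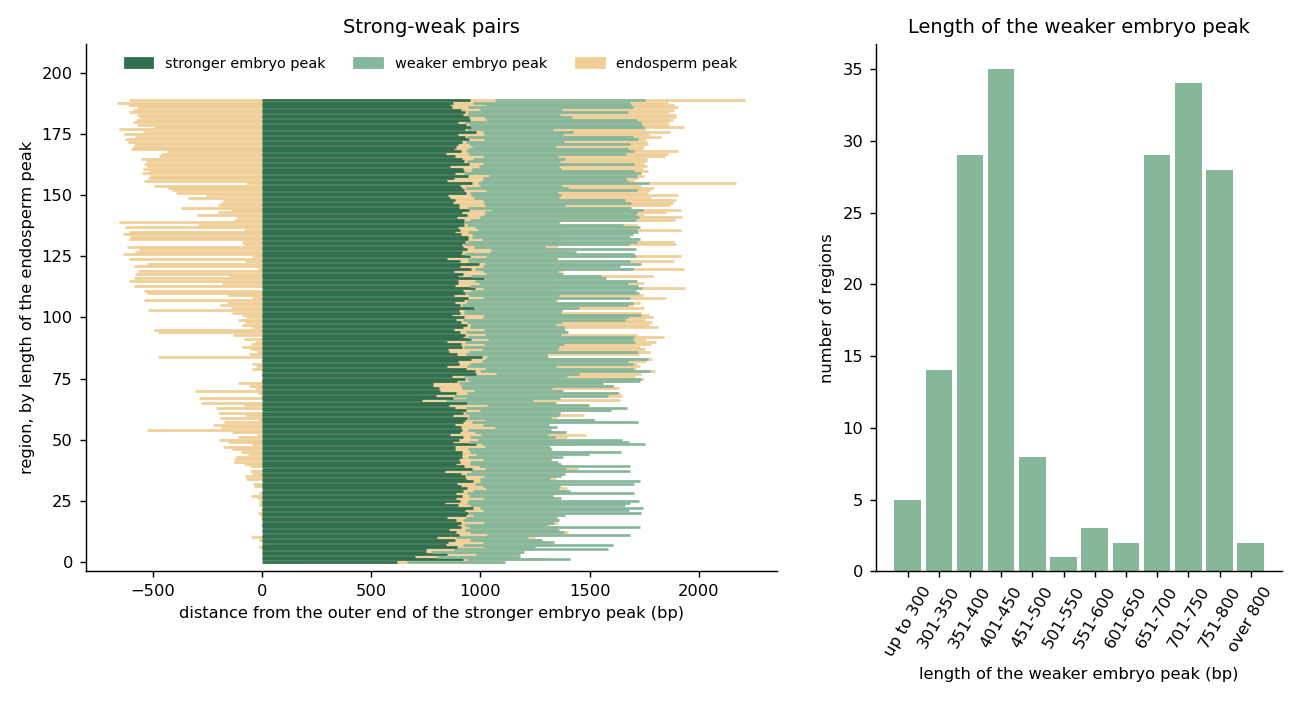
Left, the 190 regions of 1 endosperm peak (light orange) over a stronger (dark green) and a weaker embryo peak (light green), 1 line per region, ordered by length of the endosperm peak and turned so that the stronger embryo peak starts at 0 bp. Right, number of these regions by length of the weaker embryo peak in bp; the stronger peaks mostly end between 800 and 1000 bp, and the weaker ones have 86 lengths from 300 to 500 bp and 95 from 600 to 820 bp.

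About as many of the strongest embryo peaks lay in regions of 3 or more peaks as outside them, although they were a small part of the peaks there. Of 524 embryo peaks with a diffScore of at least 1000, all overlapped an endosperm peak and 264 (50.4%, 95% Wilson interval 46.1 to 54.6) lay in a region of 3 or more peaks. They made up 4.59% (4.08 to 5.17) of the 5746 embryo peaks in these regions. Among embryo peaks with diffScores from 50 to 100, 1327 of 206110 (0.644%, 0.610 to 0.679) lay in such a region. Only 26618 of the 206110 (12.9%) overlapped an endosperm peak at all, which a region requires. Of those 26618, 4.99% lay in a region of 3 or more peaks. The 190 regions just described account for 190 of the 264. Between 800 and 1000 bp there were 332 strong embryo peaks, of which 183 lay with other embryo peaks under 1 endosperm peak, 18 in regions with several of each, 9 alone over several endosperm peaks and 122 in regions of 1 of each. Over 1000 bp, of 116 strong embryo peaks, 76 lay in regions of 1 of each, 35 lay alone over several endosperm peaks, 2 with other embryo peaks under 1 endosperm peak and 3 in regions with several of each. In endosperm, 194 of 464 peaks with diffScores from 500 to 1000 (41.8%, 37.4 to 46.3) lay in regions of 3 or more peaks, and 7 of 41 (17.1%, 8.53 to 31.3) with 1500 or more.

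A smaller set also had 1 endosperm peak over 2 embryo peaks and was longer. It had no embryo peak as strong as the stronger ones of the 190 regions. In 12 regions of 1 endosperm and 2 embryo peaks the endosperm peak had 3000 bp or more, and in 9 of these both embryo peaks measured 300 to 700 bp. In these 9 regions the endosperm peak ran from 3300 to 3829 bp, the left embryo peak from 524 to 607 bp, the right one from 345 to 530 bp, and the gap between them from 26 to 156 bp. The embryo diffScores were modest, from 51.8 to 465. An example is the region on chromosome 3 from 66755476 to 66759304, with embryo peaks of 579 and 475 bp that both lay beyond the first 2690 bp of an endosperm peak of 3829 bp. The next region of 3 or more peaks was 665 bp away from it. In 5 of the 12 regions the nearest such neighbour was 1 of the 190 regions of a strong and a weak embryo peak.

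Regions of 2000 bp or more numbered 177. Of these, 92 had 1 endosperm peak, 68 had 1 embryo peak and 17 had several of each. The long regions under 1 endosperm peak were alike in length, with quartiles of 2227 and 2473 bp. Their highest embryo diffScore had a median of 1452, and embryo peaks lay on a median of 68.9% of the region. Many belonged to the group of 190 similar regions, which was picked for a high embryo diffScore. Of 76 endosperm peaks over 2000 bp with several embryo peaks, 53 were in the group. The other 23 had a median highest embryo diffScore of 194. The long regions under 1 embryo peak were more varied. Their length had quartiles of 2307 and 3693 bp, their embryo diffScore a median of 539 (257 and 1013), and endosperm peaks lay on a median of 66.2% of them. The longest of all, on chromosome 5 from 105721888 to 105730035, was a single embryo peak of 8148 bp with a diffScore of only 118. On it lay endosperm peaks of 3681, 2689 and 1327 bp with diffScores of 333, 56.8 and 68.6. The next longest of this class, on chromosome 10 from 121000217 to 121007481, had high scores throughout, with an embryo diffScore of 1351 over 7260 bp and endosperm diffScores of 777 and 1478 on peaks of 1389 and 5875 bp that were 1 bp apart.

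Among the regions of 3 or more peaks, the highest embryo and the highest endosperm diffScore met in a region of 1183 bp on chromosome 3 from 10604618 to 10605800. Its embryo peak had a diffScore of 3100, and of its endosperm peaks the one of 1012 bp also had 3100 and the one of 128 bp had 94.8. On chromosome 9, from 93947247 to 93949385, embryo peaks of 776 and 1355 bp had diffScores of 398 and 3055, and endosperm peaks of 573 and 1412 bp had 303 and 1893. The breaks in the lists were 8 and 12 bp long, and in each list the right-hand peak was the stronger. On chromosome 8, from 175788354 to 175790999, the strongest peak of each list again lay at the right-hand end, with 2026 in embryo and 1918 in endosperm. The embryo peak of 3201 bp on chromosome 9 from 72226097 to 72229297 had a diffScore of 2416 and covered endosperm peaks with 1137 and 290.4.

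The regions were spread over all 10 chromosomes, between 322 on chromosome 9 and 618 on chromosome 1. As a share of the shared regions of a chromosome they ran from 4.35% on chromosome 4 (95% Wilson interval 3.96 to 4.77) to 6.32% on chromosome 6 (5.78 to 6.91). On the other 9 chromosomes the class with 1 embryo peak made up between 58.7% and 70.6% of the regions, and on chromosome 6 it made up 48.7%, beside 43.4% with 1 endosperm peak. An interval of chromosome 6 from 10 to 13 Mb, known from earlier results, held 116 of its 452 regions, and 87 of these had 1 endosperm peak. There 20.7% of 560 shared regions held 3 or more peaks, against 5.05% outside. Without the interval, chromosome 6 had a share of 5.10% (4.59 to 5.66), and 61.3% of its regions had 1 embryo peak. The regions of the interval had a median length of 1318 bp, against 697 bp outside. Of the 190 regions of a strong and a weak embryo peak, 40 lay in the interval. There 28 had a weak peak of 300 to 500 bp and 9 one of 600 to 820 bp, whereas outside it the numbers were 58 and 86.

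**Figure D5:**
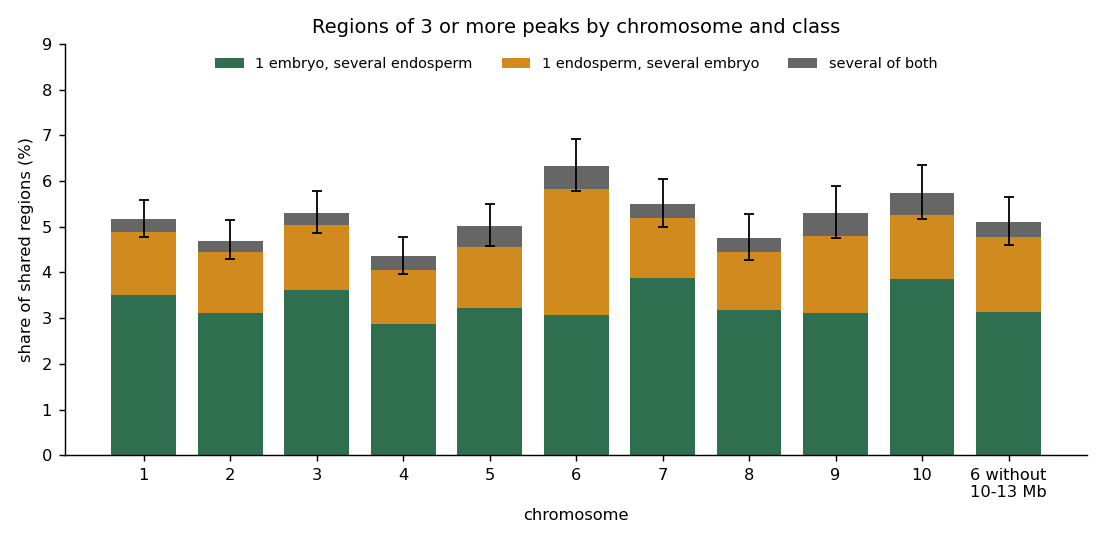
Regions of 3 or more peaks in percent of the shared regions of each chromosome, stacked by class, with 95% Wilson intervals for the sum. Chromosome 6 was highest at 6.32%, with the largest share of 1 endosperm peak over several embryo peaks, and was at 5.10% without its interval from 10 to 13 Mb (last bar).

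Along the chromosomes, each cut into 10 equal parts from its left to its right end, the share of shared regions with 3 or more peaks was 6.68% in the first part (5.72% without the interval of chromosome 6). It was lowest in the sixth part, with 4.27%, close to the 4.28% of the third. It was 5.74% in the ninth part and 5.55% in the last. In windows of 1 Mb, 350 of 2064 windows held no such region, the median was 2 and 16 windows held 10 or more. The fullest windows were those of chromosome 6 from 10 to 13 Mb, with 36, 42 and 38 regions, and that from 15 to 16 Mb, with 21, of which 17 had 1 endosperm peak.

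Other full windows differed among themselves. On chromosome 6 from 20 to 21 Mb, 10 of 13 regions had 1 endosperm peak. Chromosome 9 from 0 to 1 Mb held 4 with 1 embryo peak, 5 with 1 endosperm peak and 4 with several of each. Some full windows held mostly regions with 1 embryo peak. On chromosome 8 from 48 to 49 Mb, 13 of 14 regions had 1 embryo peak, and 10 of them were 2000 bp or longer. Those 10 all lay between 48169624 and 48302169 and had lengths from 2172 to 5523 bp and embryo diffScores from 105 to 1567. Further windows with many long regions were chromosome 9 from 72 to 73 Mb, with 9, chromosome 5 from 105 to 106 Mb, with 8, and chromosome 1 from 134 to 135 Mb, with 6. All 33 long regions of these 4 windows had 1 embryo peak, and they make up 33 of the 68 long regions of this class. Their median length was 3145 bp (95% interval 2611 to 3714), against 2632 bp (2317 to 2931) for the other 35, and the median embryo diffScore was 440.1 against 569. Over the whole set, 607 of 4225 regions (14.4%) had another region of 3 or more peaks within 10000 bp.

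Some regions met the rule narrowly. In 226 of the 4225 regions (5.35%) the smallest overlap that held the region together was 10 bp or less, and in 34 it was 1 bp. Just outside, 1530 of the 77642 regions of 1 of each (1.97%) had a further peak within 10 bp that did not overlap. The 155 regions of exactly 3 peaks with such a small overlap had a median length of 517 bp and a median highest embryo diffScore of 131, and the 1530 had 352.5 bp and 139.

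A few regions could be tied to genes through the study's list of methylated gene regions, of which only the first rows were used, all on chromosome 1. The embryo rows used end at 22623587 and the endosperm rows at 62527212, so for the genes named here embryo peaks could not be assigned to gene regions. GRMZM2G394203, listed by the study among imprinting genes, had an endosperm peak in its transcriptional termination region (TTR). This peak, of 250 bp with a diffScore of 97.9, opens a region from 50089433 to 50090362 with 2 embryo and 3 endosperm peaks. The embryo peaks of 330 and 552 bp had diffScores of 142 and 176 and were 10 bp apart. The endosperm peaks were 45 and 187 bp apart, so the first endosperm gap lay on the first embryo peak and the second on the other. GRMZM2G013783, annotated as an AMP-binding protein, had a peak in its TTR. It belongs to a region from 48683744 to 48684489 with an embryo peak of 746 bp (diffScore 442) over endosperm peaks of 260 and 298 bp (84.7 and 125), 93 bp apart. GRMZM2G018678, annotated as Gag and Pol, the structural and enzymatic proteins of a retrotransposon, had an intron peak of 254 bp (diffScore 144) in endosperm. It lay across a gap of 11 bp between embryo peaks of 311 and 253 bp (131 and 102), from 52804898 to 52805472.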

How the data were processed

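One MeDIP-seq library of embryo and one of endosperm were used. The authors cleaned reads with fastx, mapped them with Bowtie2 (version 2.0.5) and called peaks per library with MACS. The deposited lists give positions and a score, the diffScore. No input library and no genome build is given in the sources used here. Positions are printed 1-based, on the chromosomes of the lists.

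Peaks were joined in Python 3.11.15 with numpy 2.4.6, pandas 2.3.3 and scipy 1.17.1, and plotted with matplotlib 3.10.9. The joining was tested on simulated data (700 of 700 embryo and endosperm regions recovered), and bedtools gave the same count of 4225 regions. Shares have 95% Wilson intervals and medians 95% binomial order-statistic intervals, for counting error only. No test was made, since there is 1 library per tissue. The score bears on peak calling, so scores were compared within a list only.

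The regions, classes, lists and alternatives were chosen with earlier results of these data known. Regions were named where they were among the 3 with most peaks or the 3 longest of their class, or among the 3 highest in diffScore of a list, ties going to the longer or fuller region. Genes were named where the rows at hand of the study's tables assign them to a peak of a region and annotate them. Alternatives were a diffScore of at least 100, an overlap of 50% of the shorter peak, a reach of 200 bp, joining within a list over 100 or 500 bp, and all sequences of the lists. Sequence content was not analysed here.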

Additional observations from a re-analysis of the deposited data

Results flagged for a closer look

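Sequences outside chromosomes 1 to 10 were not used in the comparisons above. On the sequences that the lists name UNKNOWN, 108 of 778 shared regions held 3 or more peaks (13.9%, 95% Wilson interval 11.6 to 16.5), of which 42 had 1 embryo peak, 51 had 1 endosperm peak and 15 had several of each. Their median length was 1422.5 bp.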

How the results depend on the processing

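The numbers depend on how peaks are joined. With 3 or more peaks per region, the count of 4225 became 754 at a diffScore of at least 100 in both lists, 13593 with a reach of 200 bp, and 2060 or 1298 with peaks of a list joined over 100 or 500 bp. Regions with 1 embryo peak numbered 275 at a diffScore of at least 100, and 1601 and 1096 with joined peaks. Regions with 1 endosperm peak numbered 418, 645 with an overlap of 50%, 7041 with the reach, and 447 and 195 with joined peaks, and those with several of each 61, 15, 3265, 12 and 7. So 1 endosperm peak over several embryo peaks was the commoner class at a diffScore of at least 100 and with the reach. The share of 5.16% became 4.34%, 3.91%, 16.6%, 2.57% and 1.69% in the order just given (diffScore, overlap, reach, joining over 100 bp, joining over 500 bp). The median length of 708 bp became 1186.5, 734, 737, 997 and 1587.5 bp. The median endosperm gap of 42 bp became 32.5 bp at a diffScore of at least 100, 97 bp with the reach, and 196 and 643 bp with joined peaks, which removes short gaps by construction. The embryo gap of 30 bp became 46, 47, 72, 145 and 603 bp. The median highest embryo diffScore of 283 became 541 at a diffScore of at least 100, 332 with an overlap of 50%, 174 with the reach and 215 with joining over 500 bp. The endosperm one of 100.8 became 258, 107, 84.8, 107 and 98.2. Apart from removed short gaps, the cause was not tested. Using all sequences, or leaving out chromosome 6 from 10 to 13 Mb, moved none of these 10 values beyond its interval or by 1.5 times. That omission, the other minimums for a strong embryo peak and the values without the 190 similar regions were chosen after seeing the data. No paired analysis was possible because each tissue has a single library. Reads per peak were not used, so the part of depth in the gaps was not tested.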

Other observations

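On the mitochondrion 3 of 13 shared regions held 3 or more peaks (23.1%, Wilson interval 8.18 to 50.3). On the chloroplast it was 1 of 3 (33.3%, 6.15 to 79.2). All of them had 1 endosperm peak over several embryo peaks. The mitochondrial regions had a median length of 4182 bp, and the single chloroplast region had 4192 bp. The paper takes the plant chloroplast genome as lacking methylation activity and counted nuclear reads alone.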
